A study of Mus musculus with 8 samples.

Results

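The genes described here are 10 members of the mammalian circadian clock, namely Dbp, Tef, Hlf, Per1, Per2, Per3, Nr1d1, Nr1d2, Arntl and Npas2, taken by symbol from 55450 genes of a bulk RNA-seq table and all 10 measured above the filter on low counts. The members were selected on their measured levels in these 8 tumours, that is on the output genes (Dbp, the Period genes and Nr1d1 and Nr1d2) set against Arntl and Npas2 by arm and by response, so their values are given as a description with no p-value of their own. Counts of members past a threshold come from fits over all genes, restate that selection and support nothing. MOC1 cells, which derive from a carcinogen-induced squamous tumour of the mouse mouth, had been grown in the flank of C57BL/6 mice. Every mouse was given anti-PD-1, which blocks an inhibitory receptor of T cells, during 32 days. For 5 tumours the antibody was combined with antisense oligonucleotides (ASOs, which pair with a transcript and lower it) to Smyd3, the gene of a lysine methyltransferase. Of these 5 tumours, 2 are labelled as responders (numbered 1 and 3), 1 carries no response mark (numbered 2) and 2 are labelled as non-responders (called 1 and 2 here in the order listed). The other 3 tumours received a control ASO with the same antibody. No tumour was free of anti-PD-1, and all came from 1 cell line. The hour of resection and the light schedule of the mice are not given in the sources used here. The labels give each sample its own number and do not state that each came from a separate mouse, so p-values measure only the spread between these samples. That spread was larger than counting error, with a chi-square per degree of freedom of 25.3 to 82.2 between libraries of 1 group.

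In the clock, the activator ARNTL (BMAL1) pairs with CLOCK or its relative NPAS2, binds E-box sequences and drives transcription of the Period and Cryptochrome repressors, of the REV-ERB receptors Nr1d1 and Nr1d2 and of Dbp. PER and CRY proteins then hold back the activator, while REV-ERB proteins repress Arntl and Npas2 through RORE sequences, so that Arntl and Npas2 peak at the opposite time of day from Dbp, Nr1d1 and the Period genes. DBP, TEF and HLF form the PAR bZIP family and activate genes through D-box sequences. Most peripheral tissues of the mouse run such a clock.

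Matches to the regulatory elements of this loop were looked for in RefSeq promoter sequences (GRCm38.p6, from 250 bases before to 50 bases after each annotated start). These held 12 promoters for 9 of the members. Per2 is not shown. Short motifs were searched on both strands, the E-box CACGTG, the D-box as TTATGTAA or TTACGTAA, the core of the RORE as TAGGTCA or TGGGTCA, and the cAMP response element TGACGTCA. None of these motifs contains another. The E-box was present in 7.15% of all 32851 promoters of this length, the D-box forms in 0.938% and 0.119%, the RORE cores in 2.61% and 3.98%, and the cAMP response element in 1.79%. The 4 promoters below carry 1 of the elements of the loop or belong to the member with the largest difference between the arms. Capitals mark a motif, and lower case marks all other bases. They are Dbp (chr7:45704997-45705296, plus strand), Tef (chr15:81802423-81802722, plus strand), Per3 (chr4:151044616-151044915, minus strand) and Arntl (chr7:113207261-113207560, plus strand).
Dbp: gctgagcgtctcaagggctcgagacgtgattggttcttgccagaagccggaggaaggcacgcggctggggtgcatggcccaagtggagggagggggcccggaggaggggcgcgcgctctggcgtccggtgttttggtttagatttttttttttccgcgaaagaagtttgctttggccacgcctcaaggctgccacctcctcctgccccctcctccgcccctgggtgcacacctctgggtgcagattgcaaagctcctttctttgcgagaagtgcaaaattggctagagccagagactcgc
Tef: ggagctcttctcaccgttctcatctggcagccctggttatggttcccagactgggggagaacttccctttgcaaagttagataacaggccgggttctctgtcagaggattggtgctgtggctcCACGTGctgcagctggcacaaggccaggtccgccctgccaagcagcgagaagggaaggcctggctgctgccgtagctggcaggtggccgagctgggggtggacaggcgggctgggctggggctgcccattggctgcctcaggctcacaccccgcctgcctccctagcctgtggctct
Per3: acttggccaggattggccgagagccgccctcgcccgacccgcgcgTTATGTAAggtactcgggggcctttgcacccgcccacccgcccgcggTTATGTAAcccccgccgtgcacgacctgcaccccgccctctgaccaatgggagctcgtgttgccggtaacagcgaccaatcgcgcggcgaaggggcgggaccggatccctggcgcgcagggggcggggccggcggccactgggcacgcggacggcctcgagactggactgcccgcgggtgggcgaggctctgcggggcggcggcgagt
Arntl: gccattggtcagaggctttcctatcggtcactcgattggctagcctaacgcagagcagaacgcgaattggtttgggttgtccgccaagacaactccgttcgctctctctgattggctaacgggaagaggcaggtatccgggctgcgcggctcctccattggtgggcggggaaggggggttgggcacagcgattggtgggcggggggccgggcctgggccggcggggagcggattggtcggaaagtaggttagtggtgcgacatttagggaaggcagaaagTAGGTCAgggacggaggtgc
Per3 held the D-box TTATGTAA at 205 and at 158 bases before its start. Tef held the E-box at 127 bases before this start and again before its other start, and Per1 held it at 166 bases before 1 of its 2 starts. Arntl held the RORE core TAGGTCA from base 31 after this start, and Hlf held the cAMP response element from 9 bases before its start. The Dbp window and those of Nr1d1, Nr1d2 and Npas2 held none of the searched letters. These matches describe letters in short windows and say nothing on binding in the tumours. Elements outside the windows were not searched, so a window without a match does not mean a gene without the element.

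The libraries held 22103853.1 to 27258700.1 expected counts. Smyd3 itself was at 8.68, 4.38, 4.58, 9.26 and 4.88 CPM (counts scaled to library size, with TMM factors) in responders 1 and 3, the tumour without a mark and non-responders 1 and 2, against 10.7, 11.9 and 10.6 CPM in controls 1 to 3, so every Smyd3 ASO tumour was lower. The 10 markers of squamous epithelium, the labelled tumour type, were present in every tumour, with Krt14 averaging 9835.4 ± 2725.6 CPM under Smyd3 ASO and 12259.4 ± 1502.7 CPM under control ASO (SD, n = 5 and 3). In bulk tissue, fewer cells of a type and less RNA per cell cannot be told apart, and host and tumour transcripts were counted together.

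Smyd3 ASO was first compared with control ASO. Dbp, Tef, Per2, Per3 and Nr1d1, which are output genes or repressors of the loop, were lower in all 5 Smyd3 ASO tumours than in all 3 controls, whereas Hlf, Per1, Nr1d2, Arntl and Npas2 overlapped between the arms. Complete separation downward was thus seen in 5 of 10 members. It was seen in 5.14% of all 16911 genes tested, and no reading is drawn from the members' count because the list was proposed from this contrast. In the same contrast all 10 members had a log2 fold change below 0, with a median of -0.33, while 48.2% of all genes lay below 0 and their median was 0.01. edgeR called 0 of the 10 members at a false discovery rate (FDR) of 0.05, as it called 0% of all genes, although 2630 genes (15.6%) had an unadjusted p below 0.05. At that unadjusted threshold 5 members were lower, as were 7.0% of all genes. Without non-responder 1 edgeR called 259 genes (1.54%), among them Dbp, Per2 and Per3, and without control 1 it called 5 genes and 0 members. DESeq2 called 5 members lower, Dbp, Tef, Per2, Per3 and Nr1d1, against 2.28% of all genes, and limma voom called 0 members and 0 of all genes. These calls, like the separation, are on the contrast that chose the members, and no reading is drawn from them either.

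**Figure D1:**
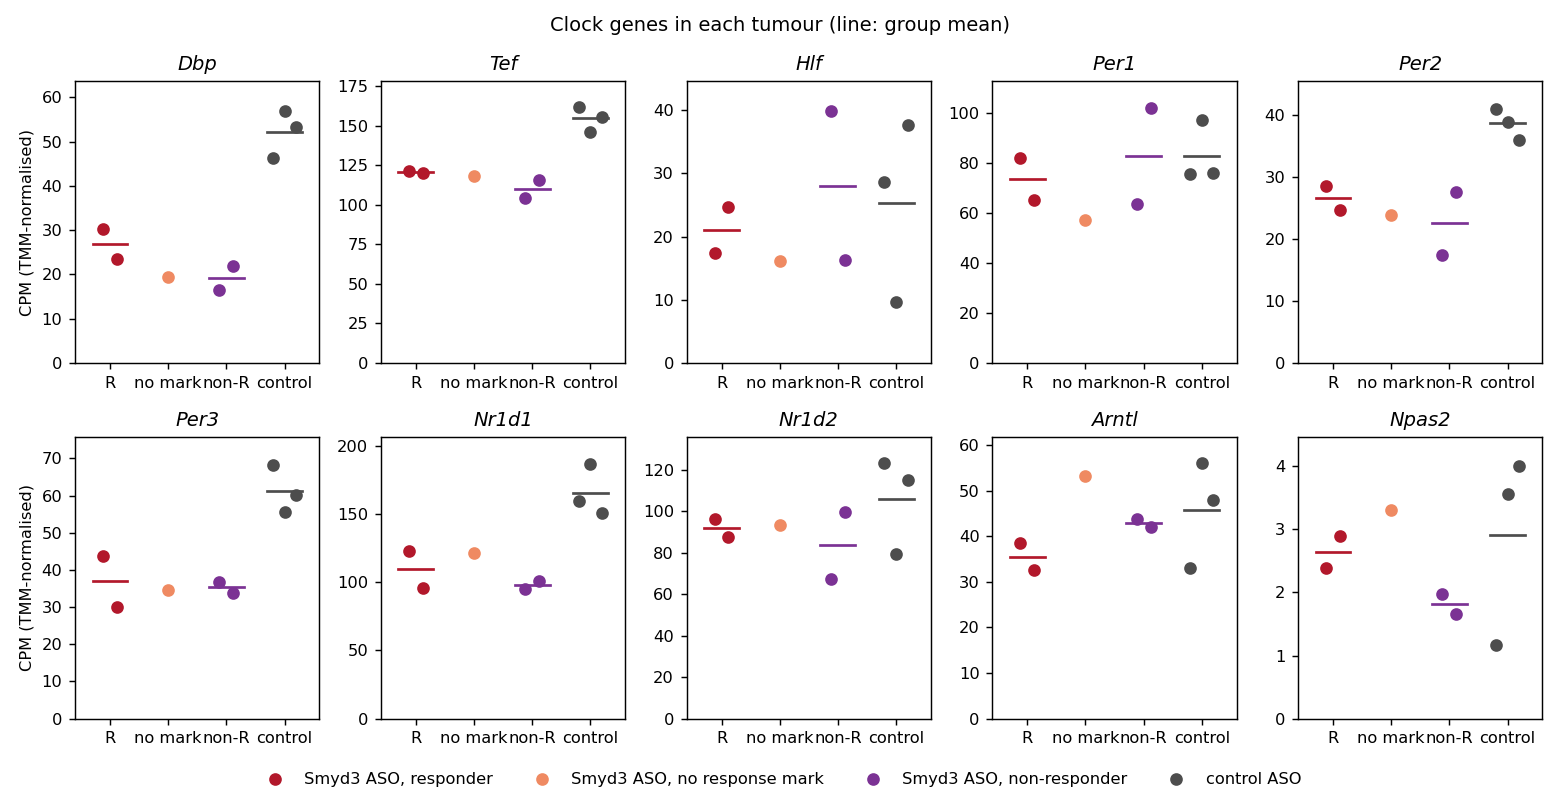
TMM-normalised CPM of the 10 clock genes (vertical axes, each from 0) in responders (R), the tumour without a mark, non-responders (non-R) and controls; points are tumours and lines are group means. For Dbp the Smyd3 ASO tumours lie between 16.4 and 30.2 CPM and the controls between 46.3 and 56.9 CPM, while Arntl overlaps between the arms.

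Dbp, the PAR bZIP factor whose transcript is among the strongest oscillators of mouse tissues, showed the largest difference of the 10. It was at 30.2 and 23.6 CPM in responders 1 and 3, 19.5 CPM in the tumour without a mark and 16.4 and 21.9 CPM in non-responders 1 and 2, against 46.3, 56.9 and 53.4 CPM in controls 1, 2 and 3. The highest Smyd3 ASO tumour thus stayed well below the lowest control. The means were 22.3 ± 5.16 CPM (SD, n = 5) under Smyd3 ASO and 52.2 ± 5.44 CPM (SD, n = 3) under control ASO, a level of 42.7% of the control mean, and the log2 fold change was -1.23 (SE 0.18). Single Smyd3 ASO tumours stood between 31.4% (non-responder 1) and 57.8% (responder 1) of the control mean. The deposited counts behind these values were 356 to 1277 per tumour.

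The other PAR bZIP factors split. Tef was at 121, 120, 118, 104 and 115 CPM in responders 1 and 3, the tumour without a mark and non-responders 1 and 2, against 162, 146 and 156 CPM in controls 1 to 3. Both arms were tight and did not overlap, and the log2 fold change was -0.42 (SE 0.09), or 74.95% of the control mean. Hlf was at 17.4, 24.7, 16.1, 39.8 and 16.3 CPM in the same order of Smyd3 ASO tumours, against 28.6, 9.72 and 37.7 CPM in controls. Its highest value belonged to non-responder 1 and its lowest to control 2, so that it varied more within the control arm (range 1.95 on the log2 scale) than between the arms (log2 fold change -0.15, SE 0.45).

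Among the Period genes, which encode the repressors that pair with cryptochromes, Per3 and Per2 were lower throughout. Per3 was at 43.8 and 30.04 CPM in responders 1 and 3, 34.6 CPM in the tumour without a mark and 36.7 and 33.9 CPM in non-responders 1 and 2, against 68.3, 55.5 and 60.2 CPM in controls. The log2 fold change of Per3 was -0.78 (SE 0.13). Its promoter above holds both D-box matches, and a link between these and its level was not tested. Per2 was at 28.5, 24.6, 23.8, 17.4 and 27.6 CPM in the same Smyd3 ASO tumours, against 40.9, 38.9 and 36.0 CPM in controls. No Smyd3 ASO tumour reached a control, and the log2 fold change of Per2 was -0.66 (SE 0.16). Per1, which is also induced by glucocorticoids and by cAMP signalling, was at 81.8, 65.3, 57.2, 63.6 and 102 CPM under Smyd3 ASO, against 75.6, 97.1 and 75.9 CPM under control ASO. Non-responder 2 had the highest Per1 of the 8 tumours, the arms overlapped, and the log2 fold change was -0.16 (SE 0.19).

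The REV-ERB receptors are nuclear receptors that bind heme and repress Arntl. Nr1d1 was at 123 and 96.0 CPM in responders 1 and 3, 121 CPM in the tumour without a mark and 94.9 and 101 CPM in non-responders 1 and 2, against 159, 187 and 150 CPM in controls. The arms did not overlap, and the log2 fold change was -0.63 (SE 0.13). Nr1d2 was at 96.3, 87.3, 93.1, 67.5 and 99.8 CPM under Smyd3 ASO, against 123, 79.3 and 115 CPM under control ASO. Here control 2 lay below 4 of the Smyd3 ASO tumours, and the log2 fold change was -0.25 (SE 0.17). Nr1d1 overlaps Thra and Dbp overlaps Sphk2 on the opposite strand, and the strand setting of the counting is not given in the sources used here. Thra averaged 33.2 ± 3.19 CPM in Smyd3 ASO tumours and 46.3 ± 8.05 CPM in controls (log2 fold change -0.48, edgeR FDR 0.148), and Sphk2 averaged 42.6 ± 4.16 CPM in Smyd3 ASO tumours and 51.3 ± 5.95 CPM in controls (log2 fold change -0.27, edgeR FDR 0.295; SD, n = 5 and 3), so each pair shares its direction. Per3 overlaps Camta1 on the same strand. The part of shared reads was not tested.

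**Figure D2:**
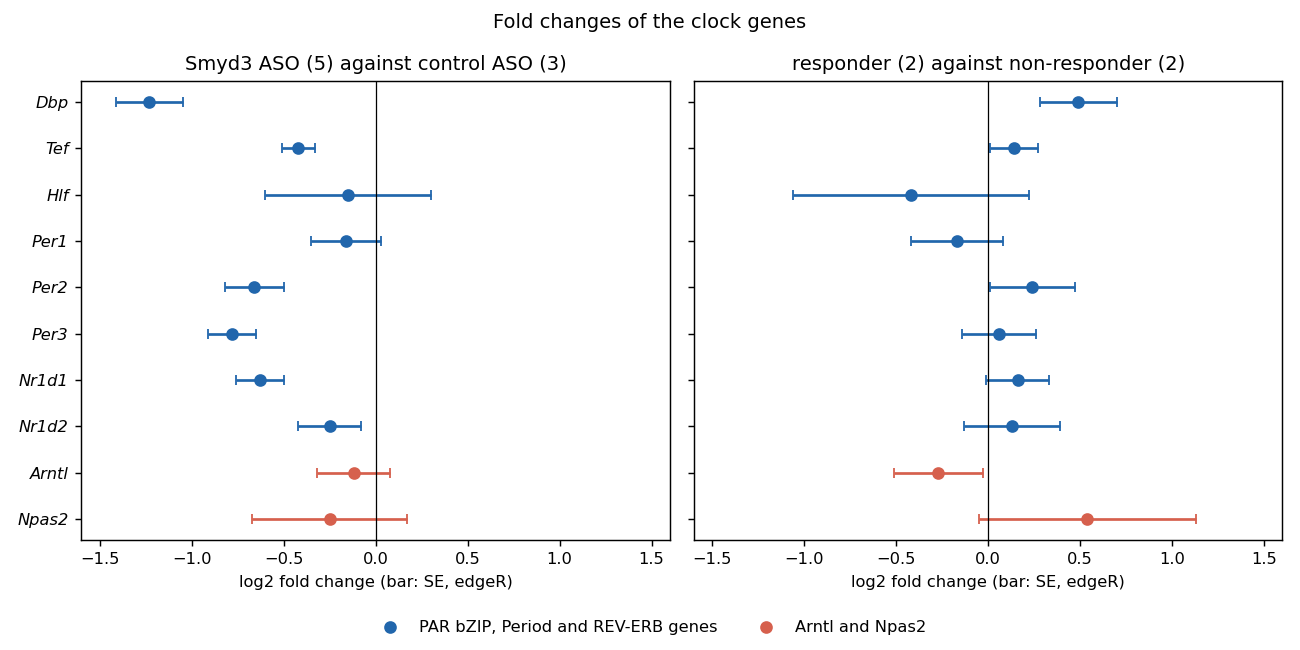
log2 fold changes (horizontal axes, bars are SE from edgeR) of the 10 clock genes for Smyd3 ASO against control ASO and for responders against non-responders. In the first panel Dbp lies furthest from 0, at -1.23, and in the second panel the values lie between -0.42 and 0.54.

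The opposite-phase genes overlapped between the arms. Arntl, the activator of the loop, was at 38.5 and 32.6 CPM in responders 1 and 3, 53.2 CPM in the tumour without a mark and 43.7 and 42.0 CPM in non-responders 1 and 2, against 33.1, 56.1 and 47.9 CPM in controls 1, 2 and 3. Control 1 lay at the low end of the Smyd3 ASO range and control 2 above it, with a log2 fold change of -0.12 (SE 0.20). Npas2, the partner that can replace CLOCK, was the scarcest member, with 28 to 95 deposited counts per tumour. It was at 2.39, 2.90, 3.30, 1.98 and 1.66 CPM under Smyd3 ASO, against 1.164, 3.567 and 3.997 CPM under control ASO, and control 1 was again the low one. The log2 fold change of Npas2 was -0.25 (SE 0.42).

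Setting the means of both sets side by side gives 1 value for each tumour. The mean log2 CPM of the 6 output genes Dbp, Per1, Per2, Per3, Nr1d1 and Nr1d2 was 5.85, 5.53, 5.55, 5.34 and 5.72 in responders 1 and 3, the tumour without a mark and non-responders 1 and 2, against 6.25, 6.23 and 6.19 in controls, a difference of -0.63 between the arm means. The controls lay close together on this measure (SD 0.03, n = 3) and above every Smyd3 ASO tumour (SD 0.20, n = 5). The mean of Arntl and Npas2 was 3.29, 3.30, 3.75, 3.25 and 3.10 under Smyd3 ASO, against 2.68, 3.84 and 3.81 under control ASO, a difference of -0.11. Output minus opposite phase was 2.26 ± 0.34 (SD, n = 5) under Smyd3 ASO and 2.78 ± 0.68 (SD, n = 3) under control ASO. This difference of the 2 sets overlapped between the arms, since it was 3.56 in control 1 but 2.39 in control 2 and 2.39 in control 3, within the Smyd3 ASO range of 1.80 to 2.62. Without control 1 the difference between the arms was -0.13, against -0.52 with it.

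**Figure D3:**
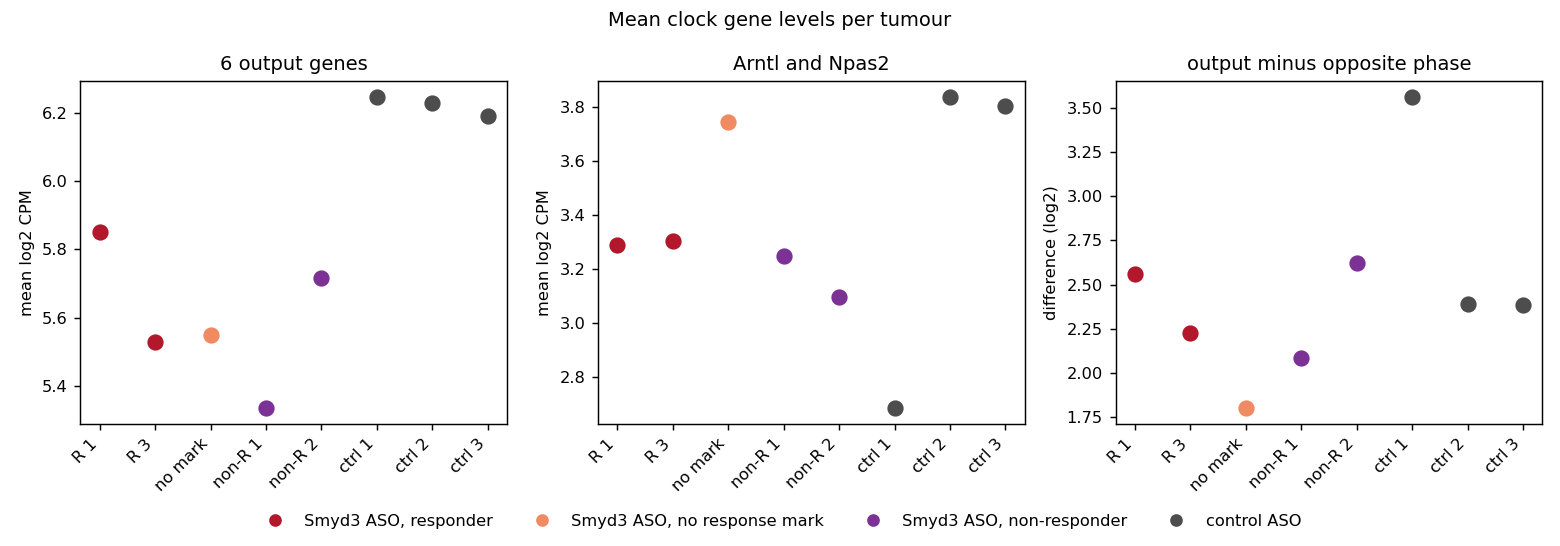
Mean log2 CPM of the 6 output genes, of Arntl and Npas2, and their difference (vertical axes, not starting at 0) in each of the 8 tumours. The output mean is 6.19 to 6.25 in controls and at most 5.85 under Smyd3 ASO, whereas the difference overlaps between the arms.

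Across the 8 tumours the members did not share 1 order. Among Smyd3 ASO tumours, non-responder 1 was lowest in 4 of the 6 output genes and responder 1 was highest in 4, but non-responder 1 also had the highest Hlf of the 8. On a scale per length (mean CPM per kilobase of union exons), Nr1d1 was the most abundant member, at 34.8 ± 4.48 in Smyd3 ASO tumours and 53.8 ± 6.17 in controls (SD, n = 5 and 3). In controls Tef (19.6 ± 1.02), Nr1d2 (19.6 ± 4.31), Dbp (17.4 ± 1.82) and Per1 (14.7 ± 2.19) followed, where Tef, Nr1d2 and Dbp lay within the SD of Nr1d2 of each other and Dbp and Per1 differed by more than either SD. In Smyd3 ASO tumours Nr1d2 (16.4 ± 2.36), Tef (14.7 ± 0.883) and Per1 (13.1 ± 3.22) followed Nr1d1, with neighbours within 1 SD of each other, and Dbp stood below them at 7.45 ± 1.72. Per2, Per3, Arntl and Hlf lay between 3.42 and 5.58 under Smyd3 ASO and between 3.79 and 6.59 under control ASO, and Npas2 was last in both arms, at 0.510 ± 0.139 under Smyd3 ASO and 0.607 ± 0.319 under control ASO.

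The second comparison, inside the Smyd3 ASO arm, set responders against non-responders, groups that the study defined by outcome. Dbp and Tef were higher in both responders than in both non-responders, but by less than the distance of either group to the controls. Dbp averaged 26.9 ± 4.68 CPM in the 2 responders and 19.1 ± 3.87 CPM in the 2 non-responders (SD), with a log2 fold change of 0.49 (SE 0.21). Tef averaged 120.6 ± 0.653 CPM in both responders and 109.6 ± 7.95 CPM in both non-responders, with a log2 fold change of 0.14 (SE 0.13). Npas2 also lay higher in both responders (log2 fold change 0.54, SE 0.59) and Arntl lower (-0.27, SE 0.24), while the other 6 members overlapped. Separation upward was thus seen in 3 of 10 members and in 20.3% of all genes tested, and separation downward in 1 member and in 18.9% of genes. edgeR called 0 members and 0% of all genes here, with 0 members and 1436 genes (8.49%) at an unadjusted p below 0.05, and DESeq2 called 0 members and 1.33% of all genes. Without responder 1 edgeR called 21 genes and 0 members. This contrast was also part of the choice, and nothing is read from these counts. The Period and REV-ERB genes lay between -0.17 and 0.24 on the log2 scale, and the sign turned for Per1 without non-responder 2 (0.21), for Per2 (-0.06) and Nr1d2 (-0.12) without non-responder 1, and for Per3 (-0.23) and Nr1d1 (-0.02) without responder 1. Hlf, at -0.42 with both non-responders, was at 0.36 without non-responder 1. Markers of some cell types moved with response too. The muscle markers summed to 2524.3 and 11938.5 CPM in responders 1 and 3, against 718.3 and 1047.3 CPM in non-responders 1 and 2, and the T cell markers to 76.7 and 163 CPM in responders, against 33.7 and 65.1 CPM in non-responders. The adipocyte markers summed to 64.8 and 301.3 CPM in responders, against 39.3 and 52.4 CPM in non-responders. Of the 8 that passed the filter on low counts, 7 were higher in both responders, beside 20.3% of all genes. Fabp4 alone was at 46.7 and 97.6 CPM in responders 1 and 3 and at 36.95 and 42.6 CPM in non-responders 1 and 2. The 10 squamous markers summed to 23609.7 and 20076.7 CPM in responders, against 42204.6 and 25055.3 CPM in non-responders. Of the 10, 7 lay lower in both responders, beside 18.9% of all genes. The part of these cell types in the clock gene values was not tested.

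The rest of the clock was read from a list of 21 genes that are not members, of which 20 passed the filter on low counts and Rorb did not. Cry2, a cryptochrome repressor, and Wee1, a cell cycle kinase whose gene is driven through E-boxes, were lower in all 5 Smyd3 ASO tumours than in all controls. Cry2 was at 19.5, 17.4, 14.9, 14.7 and 21.1 CPM in responders 1 and 3, the tumour without a mark and non-responders 1 and 2, against 38.3, 24.1 and 23.7 CPM in controls, and did not pass in edgeR (log2 fold change -0.71, SE 0.20, FDR 0.149). Wee1 was at 41.5, 37.2, 42.4, 47.8 and 36.4 CPM under Smyd3 ASO, against 60.6, 55.0 and 55.9 CPM under control ASO (log2 fold change -0.48, SE 0.11, edgeR FDR 0.101). The separation of 2 of 20 genes stands beside 5.14% of all genes. Nothing is read from it, because the list was chosen with earlier results of these data known. By smallest p Cry2 and Wee1 were followed by Ciart, a repressor of the activator complex, with a log2 fold change of -0.93 (edgeR FDR 0.206). Next was Fbxl21, an F-box protein of cryptochromes, with -1.02 (edgeR FDR 0.269) on only 10 to 36 deposited counts per tumour. Both Ciart and Fbxl21 overlapped between the arms.

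Of the 20 genes, 8 lay above 0 and 12 below, with a median of -0.07 against 0.01 for all genes tested. edgeR called 0 of them at FDR 0.05 and 0% of all genes. It found 6 at an unadjusted p below 0.05, all lower, beside 7.0% of all genes lower at that threshold. As the list is not independent of these data, its counts are given as a description only. DESeq2 called Cry2 and Wee1, both lower, beside 2.28% of all genes called lower, and limma voom called 0. Without non-responder 1 edgeR called 1, Wee1, beside 1.54% of all genes. Clock, the partner of ARNTL, averaged 123.6 ± 30.4 CPM under Smyd3 ASO and 114.5 ± 4.61 CPM under control ASO (SD, n = 5 and 3), and Cry1, the other cryptochrome, averaged 11.8 ± 2.32 CPM under Smyd3 ASO and 11.9 ± 2.13 CPM under control ASO. The casein kinase gene Csnk1d, whose product phosphorylates PER proteins, averaged 252 ± 7.69 CPM under Smyd3 ASO and 259 ± 4.88 CPM under control ASO. Between responders and non-responders edgeR again called 0 of the 20, with 1 at an unadjusted p below 0.05 beside 8.49% of all genes, and DESeq2 and limma voom called 0. That gene, Csnk1e, another casein kinase, stood at 69.2 and 67.3 CPM in responders 1 and 3, against 103 and 93.1 CPM in non-responders 1 and 2 (log2 fold change -0.52, SE 0.14, edgeR FDR 0.51). The next by p were Rora, a receptor that activates through ROREs (0.85, edgeR FDR 0.637), Lonrf3 (-1.04, edgeR FDR 0.637) and Clock (-0.40, edgeR FDR 0.652).

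**Figure D4:**
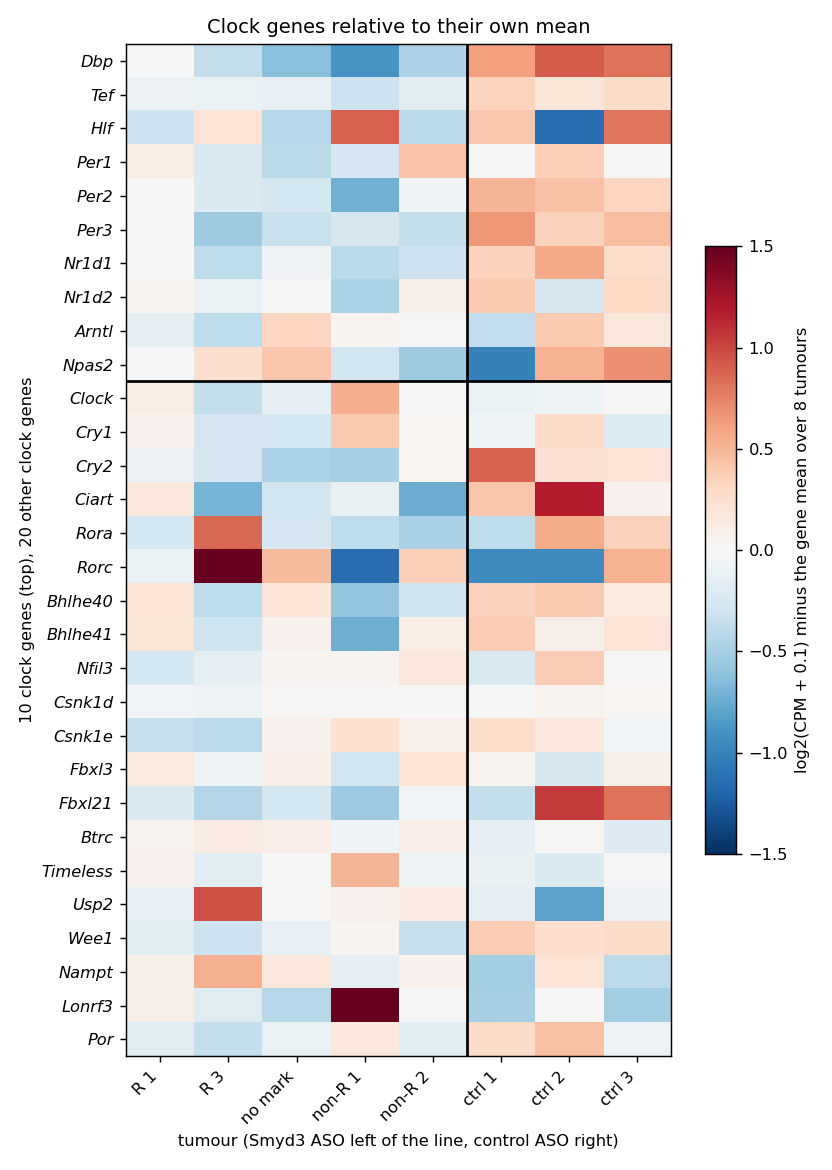
log2(CPM + 0.1) of the 10 members (above the horizontal line) and 20 other clock genes (below it) minus each gene's mean over the 8 tumours, with Smyd3 ASO tumours left of the vertical line and controls right of it. Dbp, Tef, Per2, Per3, Nr1d1, Cry2 and Wee1 are lower in every Smyd3 ASO tumour, while Arntl and Npas2 vary within both arms. Colours stop at 1.5 on either side of 0, and Rorb is not drawn.

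Genes with the most similar course over the 8 tumours were looked up by the root mean square difference of centred log2 CPM. The candidates were 13596 genes outside the members whose mean log2 CPM was 0 or more. Genes with a predicted-gene name (Gm and digits, Rik or an Ensembl identifier) were left out. For Dbp the nearest were Arrb1 (difference 0.124), Spon1 (0.225), Cdh13 (0.228) and Zfp618 (0.248), all nearer than the closest member, Per2 (0.321). The candidates far outnumber the members, so nearer genes outside the list were likely from the start, and nothing is read from this order. Arrb1 was at 101, 78.1, 63.5, 60.2 and 73.3 CPM in responders 1 and 3, the tumour without a mark and non-responders 1 and 2, against 159, 233 and 160 CPM in controls. For Arntl the nearest were Thap2 (0.090), Fam91a1 (0.115), Dnal4 (0.115) and Dzip3 (0.125), whereas its nearest member was Tef (0.346). This last value is not a shared course, since Tef separated the arms and Arntl did not. A small difference on this measure can also come from a gene that varies little, as Tef did within each arm (SD 0.089 under Smyd3 ASO and 0.075 under control ASO, log2 scale).

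Markers of other cell types moved with the arms in the same tumours. The summed level of 12 skeletal muscle markers was 718.3 to 11938.5 CPM under Smyd3 ASO and 44.0 to 108 CPM under control ASO, and all 12 lay higher in every Smyd3 ASO tumour, where 5.45% of all genes did. The 8 fibroblast markers summed to 4826.9 to 6295.6 CPM under Smyd3 ASO and 7329.9 to 12851.9 CPM under control ASO. Of them 4, Col1a1, Col1a2, Pdgfrb and Postn, lay lower in every Smyd3 ASO tumour, where 5.14% of all genes did. The other 4 overlapped, and 3 of these had a log2 fold change above 0, namely Pdgfra (0.43), Dcn (0.26) and Lum (0.43). Most of each fibroblast sum came from Col1a1, Col1a2 and Col3a1, so the sum does not speak for the list. These averaged 1450.7, 1584.1 and 1486.1 CPM under Smyd3 ASO and 2910.0, 2911.2 and 2455.7 CPM under control ASO. The 10 adipocyte markers summed to 31.3 to 301.3 CPM under Smyd3 ASO and 17.0 to 42.8 CPM under control ASO, with Lep and Pck1 at 0 counts in every control, which allows up to 3 counts a library. Most of each control sum was Fabp4, at 16.5, 42.2 and 24.9 CPM in controls 1 to 3, so the sum does not speak for the list. The upper end was responder 3 alone, with responder 1 next at 64.8 CPM. The 8 T cell markers summed to 33.7 to 163 CPM under Smyd3 ASO and 22.8 to 51.1 CPM under control ASO. The 10 squamous epithelium markers summed to 20076.7 to 42204.6 CPM under Smyd3 ASO and 29934.9 to 35347.4 CPM under control ASO, and the 7 macrophage markers to 568.0 to 1370.7 CPM under Smyd3 ASO and 604.7 to 1122.1 CPM under control ASO, with 0 genes of either list separated. Within the Smyd3 ASO arm, non-responder 1 had the lowest muscle sum (718.3 CPM) and the lowest Dbp, and responder 3 had the highest muscle sum (11938.5 CPM) with Dbp at 23.6 CPM. The part of these cell types in the clock gene differences was not tested.

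**Figure D5:**
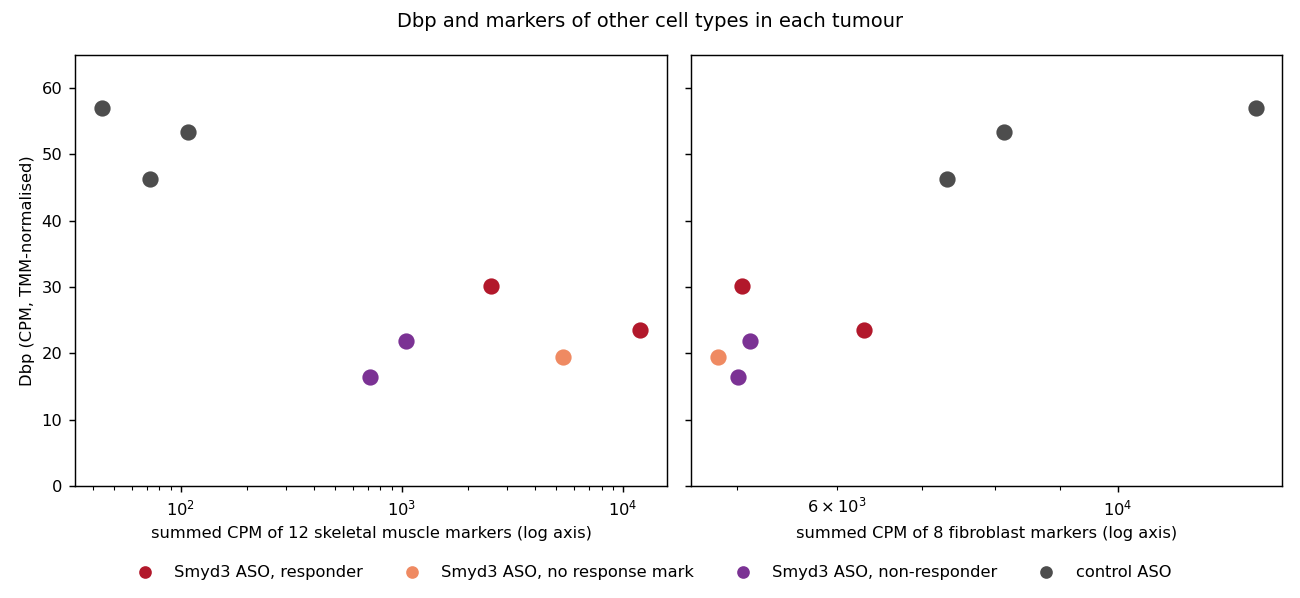
Dbp (vertical axes, CPM) against the summed CPM of 12 skeletal muscle markers and of 8 fibroblast markers (log axes) in each tumour. The 5 Smyd3 ASO tumours lie at or below 30.2 CPM of Dbp over a muscle range of 718.3 to 11938.5 CPM, and the controls lie at or above 46.3 CPM.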

How the data were processed

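Polyadenylated RNA of 8 tumours was sequenced from TruSeq Stranded mRNA libraries, per the labels' protocols. Build mm10 and the tools RSEM 1.3.0, STAR 2.7.0f, cutadapt 1.18 and bcl2fastq 2.17 are listed in the submitters' processing notes, with no settings or order. The deposited values are RSEM expected counts per gene, not scaled to library size. All 55450 identifiers were found in GENCODE M21, which gave exon lengths and overlaps. Columns were matched to tumours by the sample descriptions.

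Expected counts were rounded and genes kept with 0.424 CPM or more in 2 libraries and 15 reads in all (16911 genes, 99.93% of reads). edgeR 4.0.16 (TMM, robust quasi-likelihood test, two-sided, Benjamini-Hochberg adjustment over all genes) in R 4.3.3 compared the arms with treatment as the only term, and responders with non-responders in a model of 4 groups over 8 tumours. Alternatives were DESeq2 1.42.0, limma 3.58.1 (voom), RLE factors, no filter, the numbered tumours with and without a replicate block, and leaving out each tumour. The code was tested on simulated counts. Scores are mean log2 CPM with prior count 2.

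The members and lists were chosen with earlier results of these data known, so no count of any list is independent support. Named were all 10 members, the 4 other clock genes with the smallest p in each contrast, up to 3 genes of each further list by p, and the 4 genes most like Dbp and Arntl. Further genes (Clock between the arms, Cry1, Csnk1d, Col1a1, Col3a1, Pdgfra, Dcn, Lum, Hspb1, Hspa1a, Fkbp5, Zbtb16, Tsc22d3, Fabp4, Lep and Pck1) were named after their values were seen.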

Additional observations from a re-analysis of the deposited data

Results flagged for a closer look

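Of 21 values checked in the 5 Smyd3 ASO tumours (10 members, 3 scores and the other clock genes named by p), 2 had a tumour whose gap to its nearest neighbour took up more than 0.71 of the whole range. Chance alone gives such a gap in about 1 of 20 groups that were not chosen on these tumours. Both genes were named by their p between responders and non-responders, so this rate does not hold for them and nothing is read from the count. Lonrf3, which encodes a protein with LON and RING finger domains, was at 5.57 CPM in non-responder 1 and at most 1.99 CPM in the other 4 tumours of the arm (gap 0.851 of the range). Rora, the receptor that activates through ROREs, was at 13.4 CPM in responder 3 and at most 6.13 CPM in the other 4 (gap 0.889 of the range), and responder 3 also had the highest muscle and adipocyte sums. None of the 10 members had such a tumour.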

How the results depend on the processing

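All Smyd3 ASO against control ASO fold changes of Dbp (-1.37 to -1.10), Tef (-0.44 to -0.37), Per2 (-0.73 to -0.56), Per3 (-0.87 to -0.69), Nr1d1 (-0.70 to -0.51), Nr1d2 (-0.41 to -0.13) and Per1 (-0.31 to -0.02) kept their sign in the 15 alternatives, whereas Arntl (-0.31 to 0.07), Hlf (-0.52 to 0.24) and Npas2 (-0.63 to 0.13) did not. The count of members separated downward was 5 or 6, also with RLE factors, without TMM and without each tumour (this check was added after the data had been seen). The share of all genes separated downward, 5.14% with all tumours, was 5.93% to 10.03% without 1 tumour, and the 6 members stood beside 8.87% without control 1 and 10.03% without control 2. The output minus opposite-phase difference between the arms (-0.52) was -0.72 to -0.13 without 1 tumour, the smallest without control 1. Between responders and non-responders (0.04) it was -0.23 to 0.31 without 1 tumour, 0.44 with Arntl alone as the opposite phase and -0.02 with Tef and Hlf among the output genes. How many genes passed FDR 0.05 depended on the tool and on the tumours used. Against 0 genes in edgeR, the arms differed in 1053 genes with DESeq2, 52 without a filter, 25 as the mean of responder and non-responder groups, 245 with the replicate block in the 6 numbered tumours and 286 in these tumours without it. Leaving out 1 tumour gave 0 to 259 genes, the 259 without non-responder 1 and 5 without control 1. Of the members, 5 were called with DESeq2 (beside 6.23% of all genes tested) and 2 (Dbp and Per3) without a filter (0.19%). In the 6 numbered tumours 1 (Dbp) was called without the block (1.71%) and 0 with it (1.46%). Leaving out 1 tumour gave 0 to 3 members, the 3 being Dbp, Per2 and Per3 without non-responder 1 (1.54%). No reading is drawn from these member counts, since this contrast chose the members. Of the other clock genes 2 were called with DESeq2 and 0 to 1 without 1 tumour, Wee1 without non-responder 1. Responders and non-responders differed in 225 genes with DESeq2, 7 without a filter and 0 to 21 without 1 tumour, the 21 without responder 1. The cause of these differences between settings was not tested. Same-numbered tumours of the arms did not deviate together (correlations of their deviations -0.03, 0 and 0.08 over genes, and not every tumour correlated best with its own number), so the numbers are not taken as pairs. No paired analysis was possible for responders against non-responders because the non-responders carry no number. Precision is limited by the 5 and 3 or 2 and 2 tumours compared and, for Npas2 and Fbxl21, by their 28 to 95 and 10 to 36 counts.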

Other observations

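Some clock genes, such as Per1, also respond to glucocorticoids, and 12 genes induced by this hormone were read beside them. edgeR called 0 of the 12 between the arms at FDR 0.05. At an unadjusted p below 0.05 it found 4, 1 higher and 3 lower, beside 15.6% of all genes in either direction. The median log2 fold change of the 12 was -0.11 against 0.01 for all genes. Of the 12 genes, 5 lay above 0 and 7 below. Fkbp5, a classic target of the receptor, averaged 64.2 ± 11.2 CPM under Smyd3 ASO and 65.7 ± 14.1 CPM under control ASO (SD, n = 5 and 3). Zbtb16 (log2 fold change 1.67, edgeR FDR 0.418) and Tsc22d3 (0.53, edgeR FDR 0.559) were among those above 0, and both overlapped between the arms. Pdk4, a kinase that restrains pyruvate oxidation and is abundant in muscle, lay higher in all 5 Smyd3 ASO tumours (log2 fold change 3.81, edgeR FDR 0.0987), and Mt1, a metallothionein, lay lower in all 5 (-0.87, edgeR FDR 0.134). Ddit4, which restrains mTORC1, had a log2 fold change of -0.86 (edgeR FDR 0.233). DESeq2 called Pdk4 and Mt1, beside 6.23% of all genes, and limma voom called 0 of the 12.

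Heat shock transcripts, some of which follow body temperature over the day, were summed over 7 genes. Their level was 3784.3 to 5664.5 CPM under Smyd3 ASO and 2848.2 to 3670.6 CPM under control ASO, so the sums did not overlap. Most of each sum was Hspa8, at 2664.4 to 3876.2 CPM under Smyd3 ASO and 1777.4 to 2356.4 CPM under control ASO, so the sum does not speak for the list. The chaperones Hsph1 (log2 fold change 1.01, edgeR FDR 0.132) and Hspa8 (0.56, edgeR FDR 0.164) lay higher in every Smyd3 ASO tumour, 2 of 7 genes beside 5.45% of all genes. edgeR called 0 of the 7 at FDR 0.05 and found 2 at an unadjusted p below 0.05, beside 15.6% of all genes in either direction. Hspa1b had a log2 fold change of 0.56 (edgeR FDR 0.333). All genes of the list but Hsph1 and Hspa8 overlapped between the arms, and Hspb1 (-0.56) and Hspa1a (-0.10) lay below 0. DESeq2 called Hsph1 and Hspa8, beside 6.23% of all genes, and limma voom called 0 of the 7. The 10 immediate early genes, which respond within minutes to stimuli such as handling, overlapped between the arms, with a median log2 fold change of -0.11 and 0 genes called by edgeR, DESeq2 or limma voom, or at an unadjusted p below 0.05 in edgeR. The first by p were Jun (-0.31, edgeR FDR 0.37), Junb (-0.48, edgeR FDR 0.392) and Nr4a1 (0.47, edgeR FDR 0.48).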
